A study of Homo sapiens with 6 samples.

Results

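The genes described here encode the proteins of the cytosolic ribosome, taken from RNA-seq of YAPC cells, an established human pancreatic cancer line, in which the transcription factor GLI2 had been induced. Genes were chosen by name alone. An entry of the deposited expression table was kept if it was called RPL or RPS with a number and, where present, an A, X, L or L1 ending, or if it was RPLP0, RPLP1, RPLP2 or RPSA, and pseudogene names, RPS6K kinases and hyphenated names were left out. The rule matched 88 entries, and keeping the entry with the highest mean for each name left 82 genes of the 25442 on the primary chromosomes, 51 of the large subunit and 31 of the small subunit. Of these, 79 (49 large and 30 small) averaged 1 FPKM or more and entered the test. FPKM counts the fragments of a gene, scaled to the length of its transcript and to the size of the library.

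Both groups of cells carried the rtTA transactivator and were kept in full growth medium with Dox at 1 μg/ml for 6 days. The YAPC-iGLI2 cells (3 libraries) held the Dox-responsive plasmid pRetroX-Tight-Puro with GLI2, and the YAPC-iEV cells (3 libraries) held the same plasmid empty, so Dox, rtTA and retroviral vector are common to all 6 libraries and GLI2 is what differs by design. GLI2 is driven from a synthetic Dox-responsive promoter rather than its own, in a single cell line. The labels do not say whether the 3 libraries of a group came from separate cultures, and the p-values measure only the spread between these libraries, which may be technical. The question put to the data was whether the genes of the large and the small subunit shifted together when GLI2 was induced.

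A ribosome holds one copy of most of its proteins, and cells make these proteins in matched amounts. Their genes lie on many chromosomes and are among the most strongly expressed in dividing cells. Their mRNAs begin with a C followed by a run of pyrimidines, the 5′ terminal oligopyrimidine (TOP) tract, through which the kinase mTOR and the RNA-binding protein LARP1 govern how much of each message is translated. The P stalk, made of RPLP0 with dimers of RPLP1 and RPLP2, recruits elongation factors to the large subunit. MYC and RNA polymerase I are among the regulators that set the rate of ribosome production in tumours.

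GLI2 was measured at 0.466, 0.412 and 0.344 FPKM in iEV replicates 1 to 3 and at 94.5, 207 and 195 FPKM in iGLI2 replicates 1 to 3 (log2 fold change 6.81 ± 0.30 SE, limma adjusted p = 1.6e-04), which matches the labels of all 6 libraries. The epithelial markers KRT7, KRT19 and EPCAM were between 396 and 987 FPKM in every library and CDH1 between 51.0 and 72.5 FPKM. EPCAM and CDH1 were higher in iGLI2 (log2 fold changes 0.37 and 0.37, limma adjusted p = 0.0071 and 0.017), while KRT7 and KRT19 had values of -0.23 and -0.18 and did not pass. The fibroblast, leukocyte and endothelial markers reached no more than 5.26 FPKM (CD14), and DCN, the defining fibroblast proteoglycan, is listed at 0. Of those markers, COL1A1 was higher in iGLI2 (2.28 to 2.98 FPKM against 1.29 to 1.54 FPKM) and CD14 lower (1.30 to 1.94 FPKM against 4.10 to 5.26 FPKM), and the part of either in the results was not tested. KRT8 and KRT18 are listed at 0 in all 6 libraries, and a listed 0 in this table can be a failed estimate. Entries named as small RNA genes took 45.4% to 48.4% of the summed FPKM with the empty vector and 38.9% to 40.4% with GLI2, so the scale on which all other genes are read depends on how these entries are treated. FPKM hold no read counts, and no counting error or detection limit is given. In bulk RNA, less of a transcript in each cell and fewer cells that hold it cannot be told apart.

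Ribosomal protein genes were strongly expressed in YAPC cells. The 79 tested genes had a median of 1215 FPKM over the 6 libraries, 48 of them averaged 1000 FPKM or more and 75 averaged 100 FPKM or more. Values per length were similar between the subunits, with medians of 1118 FPKM for large and 1335 FPKM for small subunit genes. The order was led by RPL41, which encodes the shortest protein of the ribosome, followed by RPLP1, RPL37A, RPL39 and RPS27. The 4 genes below 100 FPKM were RPL39L, RPL26L1, RPL22L1 and RPS27L, each a second copy of another ribosomal protein gene. The most abundant gene, RPL41, was measured at 3456, 4049.6 and 4137 FPKM in iEV and 3416, 4346 and 4464 FPKM in iGLI2, with overlapping groups (log2 fold change 0.07 ± 0.13 SE, limma adjusted p = 0.76). Of the 5 most abundant genes, RPLP1 alone passed the test.

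Both subunits shifted in the same direction, by small amounts. Of the 79 tested genes, 72 had a log2 fold change below 0 in iGLI2 against iEV (91.1%), against 52.2% of all 12493 genes tested. The median log2 fold change was -0.18 for the 49 large subunit genes and -0.22 for the 30 small subunit genes, against -0.01 for all genes tested. Below 0 were 43 of 49 large and 29 of 30 small subunit genes. Log2 fold changes spread by an SD of 0.20 over the ribosomal protein genes and 0.57 over all genes tested, which include small RNA entries. Neither the spread nor the direction was particular to this set. For oxidative phosphorylation and mitochondrial ribosomal proteins, described below, the SDs were 0.20 and 0.21, with 86.1% and 79.7% of genes below 0. Other genes that averaged 500 FPKM or more had an SD of 0.41, with 72.8% below 0. The standard errors of the 79 fold changes ran from 0.06 to 0.23 with a median of 0.10, beside a median log2 fold change of -0.19 over all members.

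Few single genes passed the test. At an adjusted p under 0.05 (limma, Benjamini-Hochberg over 12493 genes), 11 members fell and 0 rose, against a background of 11.8% of all tested genes called lower and 10.1% called higher. The 11 are 13.9% of the 79 members tested, 6 of 49 large (12.2%) and 5 of 30 small subunit genes (16.7%), a share close to the background. Without adjustment, 20 members had p under 0.05 and a lower value and 1 had a higher value. All 3 iGLI2 values lay below all 3 iEV values for 25 members (31.6%, of which 13 large and 12 small), where 22.8% of all tested genes did so. All iGLI2 values lay above all iEV values for 2 members, RPL22L1 and RPL36AL, where 19.2% of all tested genes did so.

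**Figure D1:**
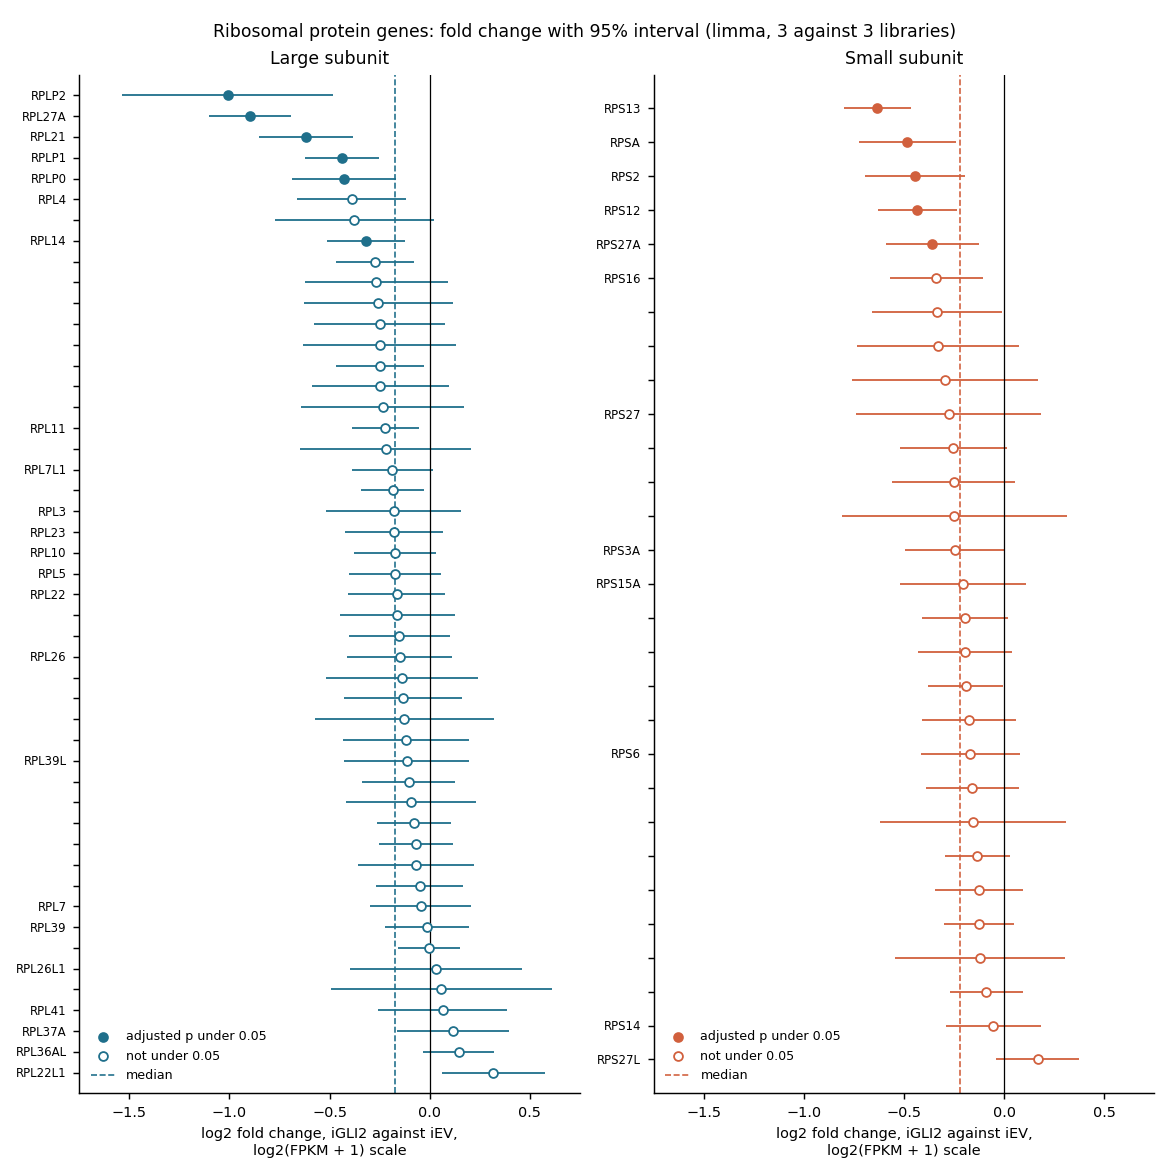
Log2 fold change of tested ribosomal protein genes in iGLI2 against iEV (x axis, log2(FPKM + 1) scale) with its 95% interval from limma, large subunit at left and small subunit at right, ordered by fold change and labelled where named in the text. Filled points passed an adjusted p of 0.05 (6 large, 5 small), the dashed line is the median over all tested genes of the subunit, and most points of both panels sit to the left of 0.

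The libraries of a group did not hold the same level of these genes. When each gene was centred on its own average of the 6 libraries, the median member stood at -0.02, 0.18 and 0.15 in iEV replicates 1 to 3 and at -0.29, -0.04 and -0.01 in iGLI2 replicates 1 to 3 on the log2(FPKM + 1) scale. Large and small subunit genes moved together from library to library, with medians of -0.29 and -0.25 in iGLI2 replicate 1 and of 0.17 and 0.21 in iEV replicate 2. iEV replicate 1 lay slightly below iGLI2 replicate 3, so the groups overlap in this measure. The other tested genes had medians between -0.04 and 0.01 in the 6 libraries.

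iGLI2 replicate 1 stood apart in which members were low. Across the 79 members, the Spearman correlation of a gene's deviation with the GC content of its reference transcript was -0.69 in iGLI2 replicate 1 and between 0.06 and 0.57 in the other 5 libraries, where all 79 points of a library share that library's preparation. Each gene was centred on its mean over these same libraries, so a negative trend in a library pushes the others the opposite way. The signs of the 5 others are therefore not independent of it. iGLI2 replicate 1 also held the least GLI2, 94.5 FPKM against 195 and 207 FPKM. Leaving it out, 62 of 79 members were below 0, the subunit medians were -0.11 and -0.14, and 13 members were called lower, where 15.2% of all tested genes were. Its part in the size of the shift was not tested beyond these values.

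**Figure D2:**
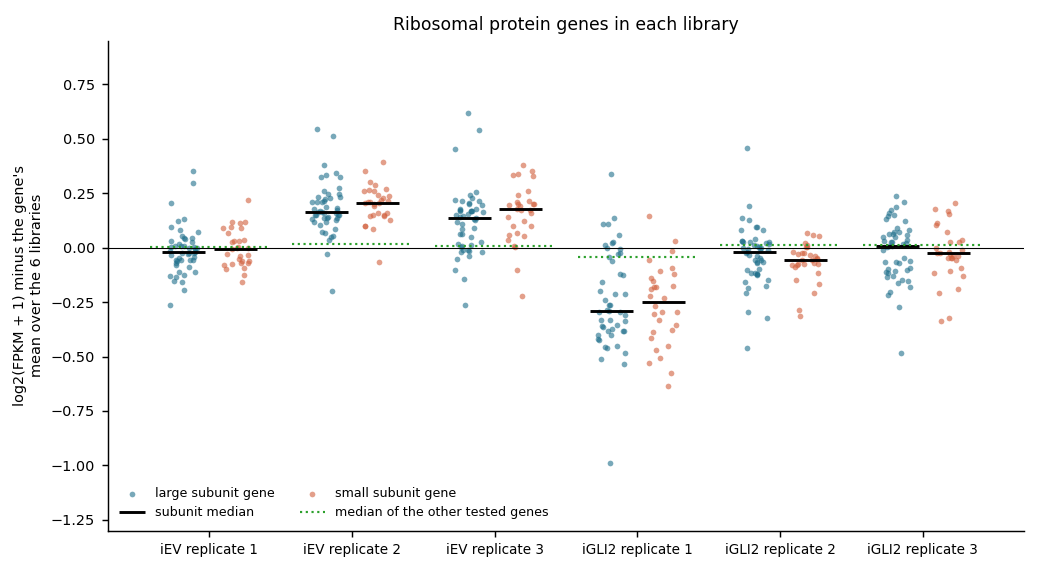
Deviation of each tested member from its own mean over the 6 libraries (y axis, log2(FPKM + 1)) in each library (x axis), with black bars for the subunit medians and a dotted line for the median of the other tested genes. Large and small subunit genes sit at similar heights within a library, lowest in iGLI2 replicate 1 and highest in iEV replicates 2 and 3.

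Summed over all 82 genes, ribosomal protein transcripts made up 20.4%, 22.6% and 22.2% of the FPKM outside small RNA entries in iEV replicates 1 to 3 and 18.6%, 20.2% and 20.6% in iGLI2 replicates 1 to 3. These groups overlap by a narrow margin. The large subunit share was 12.3% ± 0.607 (SD, n = 3) in iEV and 11.4% ± 0.615 (n = 3) in iGLI2, with overlapping libraries. The small subunit share was 9.45% ± 0.576 in iEV and 8.41% ± 0.426 in iGLI2. These libraries did not overlap, but the lowest iEV share (8.78%) and the highest iGLI2 share (8.74%) nearly met. The direction depends on what the sum is set against. As FPKM the iGLI2 sum was 0.863 times the iEV sum, outside small RNA entries 0.910 times, and as a share of the whole table, small RNA entries included, 1.03 times.

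The balance between the subunits moved slightly. The summed large subunit FPKM was 1.32, 1.31 and 1.27 times the small subunit sum in iEV replicates 1 to 3 and 1.35, 1.36 and 1.35 times in iGLI2 replicates 1 to 3. The iGLI2 ratios were all above the iEV ratios and closer to each other, and no factor applied to a whole library can change this ratio. The difference was small, the iGLI2 mean ratio being 1.04 times the iEV mean ratio, and it was given no test. Measures that weigh each gene alike gave a mixed picture. The ratio of geometric means was 0.711, 0.708 and 0.699 in iEV and 0.728, 0.731 and 0.722 in iGLI2, without overlap. The median deviation of large minus small subunit genes was -0.017, -0.040 and -0.040 in iEV and -0.040, 0.034 and 0.037 in iGLI2, with overlap.

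The P stalk held the gene with the largest decrease. RPLP2, one of its acidic proteins (hg19 chr11:809936-812876), was measured at 2048, 2347 and 2466 FPKM in iEV and at 810.2, 1283 and 1396 FPKM in iGLI2. Every iGLI2 value lay below every iEV value, with replicate 1 the lowest. The log2 fold change was -1.01 ± 0.22 SE (limma adjusted p = 0.023), a ratio of means of 0.509. Leaving out single libraries moved it between -1.16 and -0.77, and the call was lost in 4 of those 6 fits, with adjusted p up to 0.094.

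The other stalk genes also fell. RPLP1 (hg19 chr15:69745159-69747884), the second acidic stalk protein, was measured at 4521, 4649 and 4519.9 FPKM in iEV and at 3113, 3388 and 3621 FPKM in iGLI2 (log2 fold change -0.44 ± 0.08 SE, limma adjusted p = 0.011). RPLP0 (hg19 chr12:120634503-120639014), which anchors the stalk on the ribosomal RNA, was measured at 2197, 2613 and 2431 FPKM in iEV and at 1592, 1870.4 and 1923 FPKM in iGLI2 (log2 fold change -0.43 ± 0.11 SE, limma adjusted p = 0.036). Neither gene's groups overlapped, but RPLP1 was called in 3 and RPLP0 in 2 of the 6 fits that left out a library, and neither was called with no filter on low values (adjusted p of 0.16 and 0.11 by limma). The 3 stalk genes together made up 14.1%, 13.4% and 13.8% of the large subunit sum in iEV and 10.5%, 10.6% and 10.9% in iGLI2, and RPLP2 stood at 0.453, 0.505 and 0.546 of RPLP1 in iEV and 0.260, 0.379 and 0.385 in iGLI2, so within these libraries the stalk genes were lower than the rest of their subunit and RPLP2 lower than its partner.

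Among the other large subunit genes, RPL27A, RPL21 and RPL14 fell. RPL27A (hg19 chr11:8703995-8711419) was measured at 217, 252 and 257 FPKM in iEV and 133, 128 and 126 FPKM in iGLI2, nearly the same level in each iGLI2 library (log2 fold change -0.90 ± 0.08 SE, limma adjusted p = 0.0014). It had the smallest adjusted p of all members. RPL21 (hg19 chr13:27825692-27830702), which has many processed copies in the genome and so an uncertain share of reads, was measured at 1194, 1382 and 1494 FPKM in iEV and 849, 888 and 903 FPKM in iGLI2 (log2 fold change -0.62 ± 0.10 SE, limma adjusted p = 0.0082). RPL14 was measured at 582, 631 and 612 FPKM in iEV and 445, 501 and 519.9 FPKM in iGLI2 (log2 fold change -0.32 ± 0.08 SE, limma adjusted p = 0.039). RPL27A and RPL21 were called lower in all 18 alternative fits, RPL14 in 12 of them.

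In the small subunit, 5 genes fell, led by RPS13, a core protein of the subunit (hg19 chr11:17095939-17099220). It was measured at 2133, 2402 and 2315 FPKM in iEV and at 1490.2, 1471 and 1449 FPKM in iGLI2 (log2 fold change -0.63 ± 0.07 SE, limma adjusted p = 0.0023). Like RPL27A and RPL21, it was called lower in all 18 alternative fits. RPSA, also known as the laminin receptor, was measured at 384, 432 and 469 FPKM in iEV and at 332, 296 and 288 FPKM in iGLI2 (log2 fold change -0.48 ± 0.10 SE, limma adjusted p = 0.020). As for RPL27A and RPS13, its highest iGLI2 value was that of replicate 1, the library lowest for the typical member.

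RPS2, at the mRNA entry channel, was measured at 2875, 3381 and 3047 FPKM in iEV and at 2028, 2392 and 2422 FPKM in iGLI2 (log2 fold change -0.44 ± 0.10 SE, limma adjusted p = 0.029). RPS12 was measured at 3066, 3318 and 3662 FPKM in iEV and at 2446, 2483 and 2487 FPKM in iGLI2 (log2 fold change -0.43 ± 0.08 SE, limma adjusted p = 0.015). RPS27A, whose protein is made as a fusion with ubiquitin, was measured at 1061, 1228 and 1338 FPKM in iEV and at 938, 946 and 931 FPKM in iGLI2 (log2 fold change -0.36 ± 0.10 SE, limma adjusted p = 0.045). RPS12 and RPS27A varied little within iGLI2, by SDs of 22.8 and 7.29 FPKM, and more within iEV, by 299 and 139.6 FPKM. RPSA, RPS2, RPS12 and RPS27A were not called after quantile normalization, where their log2 fold changes were -0.38, -0.19, -0.16 and -0.17. RPSA, RPS2 and RPS12 were each called in 2 of the 6 fits that left out a library and RPS27A in 1, RPS2, RPS12 and RPS27A were not called with no filter on low values, and RPS27A was not called under upper quartile scaling or with small RNA entries left out.

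**Figure D3:**
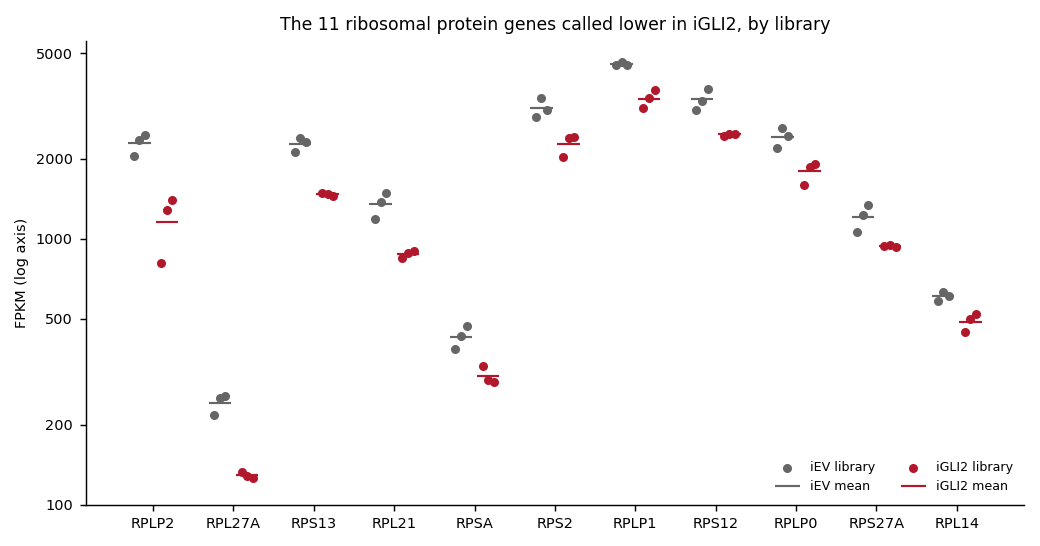
FPKM (y axis, log scale) of the 11 members called lower, in the 3 iEV and the 3 iGLI2 libraries (points, replicates 1 to 3 from left to right) with group means (lines). No gene's groups overlap, and RPL27A and RPS13 show tight iGLI2 values beside a wide gap.

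RPL4 and RPS16 lay just outside the threshold. RPL4 had a log2 fold change of -0.39 ± 0.11 SE with an adjusted p of 0.054 and RPS16 one of -0.34 ± 0.09 SE with an adjusted p of 0.053, both by limma. For both of them all 3 iGLI2 values lay below all 3 iEV values, and both passed under several of the scalings tried. RPS27A and RPL14, just inside the threshold, had fold changes of the same size, so the threshold does not set these called genes apart from RPL4 and RPS16. RPLP2, RPL27A, RPS13 and RPL21, at -1.01 to -0.62, lay below every tested member that was not called. Whether the 11 called genes form a separate class was not tested.

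RPL5, RPL11 and RPS6 have roles outside the ribosome. RPL5 and RPL11 bind MDM2 when ribosome assembly is disturbed, and RPS6 is the substrate by which mTOR signalling is often read. RPL5 was measured at 653, 764 and 805 FPKM in iEV and at 681, 647 and 633 FPKM in iGLI2, with overlapping groups (log2 fold change -0.18 ± 0.09 SE, limma adjusted p = 0.24). RPL11 was measured at 833, 904 and 949 FPKM in iEV and at 759, 773 and 769.7 FPKM in iGLI2, without overlap (log2 fold change -0.22 ± 0.07 SE, limma adjusted p = 0.071). RPS6 was measured at 1168, 1383 and 1446 FPKM in iEV and at 1102, 1225 and 1219 FPKM in iGLI2, with overlap (log2 fold change -0.17 ± 0.10 SE, limma adjusted p = 0.30).

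The typical member looked like these. RPL5, RPL10 and RPL23 lay nearest to the large subunit median, and RPS3A and RPS15A lay close to that of the small subunit. RPL10 was measured at 711, 774 and 738 FPKM in iEV and at 724, 625 and 622 FPKM in iGLI2 (log2 fold change -0.18 ± 0.08 SE). RPS15A was measured at 2011, 2318 and 2547 FPKM in iEV and at 1718, 2083 and 2165 FPKM in iGLI2 (log2 fold change -0.21 ± 0.13 SE). The iEV and iGLI2 values of both genes overlapped. RPL23 and RPS3A had log2 fold changes of -0.18 ± 0.10 and -0.25 ± 0.10 SE, and the groups overlapped for RPL23 but not for RPS3A.

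Several ribosomal protein genes have a second copy, and the protein of some of these copies can take the place of the first. The upper end of the order was made largely of second copies. RPL22L1 was measured at 27.2, 28.5 and 32.4 FPKM in iEV and at 41.7, 34.7 and 34.3 FPKM in iGLI2, with the highest value in replicate 1 (log2 fold change 0.32 ± 0.11 SE, limma adjusted p = 0.083). Its partner RPL22 was measured at 231, 249 and 255 FPKM in iEV and at 249, 204 and 204 FPKM in iGLI2 (log2 fold change -0.17 ± 0.10 SE, limma adjusted p = 0.29). Neither gene passed the test alone. Taken as a ratio, in which the scaling of a library drops out, RPL22L1 stood at 11.8%, 11.5% and 12.7% of RPL22 in iEV and at 16.7%, 17.0% and 16.8% in iGLI2, a difference several times the spread within either group.

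RPL36AL was measured at 537, 577 and 568 FPKM in iEV and at 578, 629 and 653 FPKM in iGLI2 (log2 fold change 0.14 ± 0.07 SE, limma adjusted p = 0.21), and its ratio to the entry that holds RPL36A had a mean of 64.3% ± 1.73 in iEV and 76.1% ± 5.81 in iGLI2 (SD, n = 3) without overlap, although that entry also holds HNRNPH2. RPL7L1 lay lower, from 8.60%, 8.48% and 7.77% of RPL7 in iEV to 7.45%, 7.55% and 7.49% in iGLI2, with RPL7 at 1583, 1829.6 and 1995 FPKM in iEV and at 1626, 1801 and 1796 FPKM in iGLI2. The ratios of RPS27L to RPS27, RPL26L1 to RPL26 and RPL39L to RPL39 overlapped between the groups. RPS27L itself had a log2 fold change of 0.17 ± 0.08 SE with an adjusted p of 0.22 by limma. The ratios of these copies to their partners did not share a direction.

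**Figure D4:**
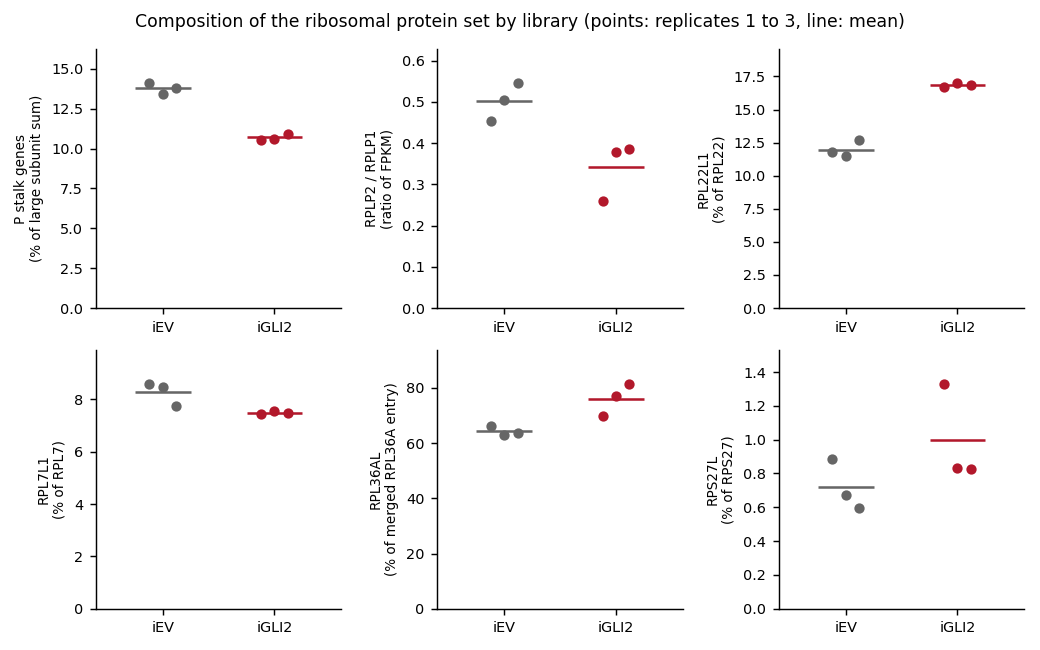
P stalk genes as a percentage of the summed large subunit FPKM, the RPLP2 to RPLP1 ratio, and RPL22L1, RPL7L1, RPL36AL and RPS27L as percentages of their partner entries (y axes, from 0) in the iEV and iGLI2 libraries, points for replicates 1 to 3 and lines for means. The groups separate in every panel except that of RPS27L.

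Copies known from heart, muscle and testis were at or near 0. RPL3L had a mean of 0.03 FPKM in both groups and RPL10L is listed at 0 in all 6 libraries. Reads of RPL17, RPS10 and RPL36A were reported under entries that join them with a neighbouring gene, and these had log2 fold changes of -0.08 ± 0.10, -0.14 ± 0.13 and -0.10 ± 0.07 SE, none past the threshold (limma adjusted p = 0.61, 0.48 and 0.38). Processed pseudogenes could share reads with their parent genes. The 29 entries named as such held no value above 5.29 FPKM and about 0.03% of the FPKM of the members, but how reads matching both were assigned is not given in the sources used here.

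The start of the transcript is what most members share outside their function. Reference sequences around the transcription start were taken from RefSeq (GRCh38.p14), which held 65 of the 82 genes. Of these, 41 (63.1%) have a C at the annotated start followed by at least 4 more pyrimidines, against 4.04% of 27305 genes, and the share was 61.0% for large and 66.7% for small subunit genes. Allowing such a tract to begin within 10 bases of the annotated start gave 75.4% of members and 26.0% of all genes. Below are 10 bases before and 20 bases from the start, 5′ to 3′, with the tract in capitals, for the stalk genes and others that fell.
RPLP2 (chr11:809957-809986, plus strand): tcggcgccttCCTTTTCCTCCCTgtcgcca
RPLP1 (chr15:69452808-69452837, plus strand): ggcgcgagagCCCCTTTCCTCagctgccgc
RPLP0 (chr12:120201092-120201121, minus strand): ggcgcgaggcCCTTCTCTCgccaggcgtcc
RPL27A (chr11:8682782-8682811, plus strand): gaaggccttcCTTTTTCgtctgggctgcca
RPS13 (chr11:17077648-17077677, minus strand): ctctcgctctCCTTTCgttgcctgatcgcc
RPSA (chr3:39406710-39406739, plus strand): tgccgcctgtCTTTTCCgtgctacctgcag

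The tract is also present at members that were not called lower. RPL22L1 and its partner RPL22 both carry one, and RPL39, at nearly the same level in both groups, has the longest of those shown. Counted from its annotated start, RPL36AL has a run of 3, too short to count. The 10 bases shown before that start are all pyrimidines too, so the start lies inside a longer run. In RPL4 the annotated start lies ahead of the tract. They are shown to set beside the called genes, although RPL4 lay just outside the threshold, with every iGLI2 value below every iEV value.
RPL22 (chr1:6199576-6199605, minus strand): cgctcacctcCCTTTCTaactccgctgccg
RPL22L1 (chr3:170870176-170870205, minus strand): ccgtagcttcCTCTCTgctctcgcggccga
RPL36AL (chr14:49620607-49620636, minus strand): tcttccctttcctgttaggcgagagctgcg
RPL39 (chrX:119791611-119791640, minus strand): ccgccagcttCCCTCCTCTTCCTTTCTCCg
RPL4 (chr15:66504836-66504865, minus strand): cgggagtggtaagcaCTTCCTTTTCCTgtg

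Most called members with a start sequence carry the tract, as do most members at large. The medians of members with and without it were close for a tract at the annotated start and less so for one nearby. RPS2, which was called lower, has no start sequence and is not counted here. Over all tested genes, 11.8% were called lower. The 41 tested members with a tract at the annotated start had a median log2 fold change of -0.19 with 9 called lower, and the 23 without it a median of -0.18 with 1 called lower. Both sets ranged widely, from -1.01 to 0.32 and from -0.39 to 0.17. With a tract within 10 bases of the start, 49 members had a median of -0.19 with 10 called lower, and the 15 without it a median of -0.13 with 0 called. These differences were not tested. Short motifs were counted in the 300 bases around the start on both strands. CCGGAAG, a core bound by ETS-family factors, was found at 33.8% of members and 10.7% of all genes, and ATGGCGG, a core bound by YY1, at 18.5% and 5.72%. CACGTG, the E-box bound by MYC, was found at 6.15% of members and 7.43% of all genes, and GACCACCCA, the GLI consensus, at 0 of 65 members and 0.249% of all genes. So rare a motif would be missing from most sets of this size, and only exact matches in this window were sought. The count of 0 therefore says nothing of GLI2 binding at these genes. The median log2 fold change was -0.18 for members with CCGGAAG and -0.18 for those without it, it was -0.21 with ATGGCGG against -0.17 without it, and it was -0.26 for the 4 tested members with CACGTG, 0 of them called, against -0.17 without it.

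GC content varied with the size of the shift. The Spearman correlation of log2 fold change with transcript GC content was -0.47 over the 79 members, which share their 6 libraries. Medians were -0.12, -0.19 and -0.25 in 3 nearly equal sets of lowest, middle and highest GC content, while calls were spread over them as 3, 5 and 3 genes. The correlation with transcript length was 0.20 and that with mean level -0.12. As given above, iGLI2 replicate 1 was the library in which members of high GC content were low. After a trend on GC content and length was removed from each library, 14 members were called lower, all 11 named above among them, where 16.8% of all tested genes were, and the subunit medians were -0.12 and -0.13.

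Many ribosomal protein genes carry small nucleolar RNAs in their introns. Of the tested members, 28 had a small RNA entry at the same locus, with a median log2 fold change of -0.24 and 6 called lower (21.4%). The other 51 had none, with a median of -0.17 and 5 called lower (9.8%), beside 11.8% of all tested genes. The 8 non-coding host genes of such RNAs, which begin with the same kind of tract but encode no ribosomal protein, had a median of -0.01 with 0 called. SNHG5, a host gene of that list, was measured at 386, 429 and 458 FPKM in iEV and at 445, 387 and 386 FPKM in iGLI2. SNHG12 and SNHG1 had the smallest p of this list, with log2 fold changes of -0.18 ± 0.06 and -0.22 ± 0.09 SE (limma adjusted p = 0.076 and 0.12). On the other side, ZFAS1, SNHG6 and SNHG8 had log2 fold changes of 0.04, 0.05 and 0.04.

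Proteins of the ribosome whose genes have other names shifted in the same direction. GNB2L1, which encodes the scaffold RACK1 on the small subunit, was measured at 1824, 2029.9 and 1779 FPKM in iEV and at 1292, 1478 and 1479.9 FPKM in iGLI2 and fell (log2 fold change -0.41 ± 0.09 SE, limma adjusted p = 0.025). FAU, which encodes a ribosomal protein fused to a ubiquitin-like protein, had a log2 fold change of -0.24 ± 0.15 SE (limma adjusted p = 0.32), with overlapping groups.

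Other genes whose mRNAs are known to carry a TOP tract, most of them translation factors, shifted by a similar amount. All 16 on the list, which also holds NPM1, NAP1L1, HNRNPA1 and TPT1, had a log2 fold change below 0, with a median of -0.18. Of these, 2 were called lower (12.5%), close to the 11.8% of all tested genes. EIF3F, a subunit of the initiation factor eIF3, was measured at 289.7, 306 and 273 FPKM in iEV and at 135, 160.1 and 165 FPKM in iGLI2 (log2 fold change -0.92 ± 0.10 SE, limma adjusted p = 0.0021). PABPC1, the cytoplasmic poly(A)-binding protein, was measured at 738, 754 and 726 FPKM in iEV and at 598, 590.0 and 612 FPKM in iGLI2 (log2 fold change -0.30 ± 0.05 SE, limma adjusted p = 0.014). EIF3L followed at -0.26 ± 0.07 SE with an adjusted p of 0.053.

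Genes that build the ribosome were read from a list of 62 for ribosome assembly and RNA polymerase I, of which 61 were tested. Their median log2 fold change was -0.14, 53 were below 0, 6 were called lower and 0 higher. The 6 are 9.84% of those tested, where 11.8% of all tested genes were called lower. NOP16, a nucleolar assembly protein, was measured at 40.4, 45.1 and 42.4 FPKM in iEV and at 22.8, 25.3 and 27.5 FPKM in iGLI2 (log2 fold change -0.74 ± 0.09 SE, limma adjusted p = 0.0031). NOLC1 and POLR1D, a nucleolar chaperone and a subunit shared by RNA polymerases I and III, fell by 0.56 ± 0.10 and 0.32 ± 0.06 SE on the log2 scale (limma adjusted p = 0.012 and 0.019). Among genes with values above 0, the smallest p were those of RIOK2, UTP15 and NMD3, with log2 fold changes of 0.14 to 0.15 and no call.

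Of 16 genes that control the synthesis of ribosomal proteins, 2 were called lower and 0 higher, with a median log2 fold change of -0.18. The share called lower, 12.5%, was close to the 11.8% of all tested genes. EEF2K, the kinase of elongation factor 2, was measured at 4.84, 4.45 and 4.71 FPKM in iEV and at 3.73, 2.99 and 3.26 FPKM in iGLI2 (log2 fold change -0.39 ± 0.08 SE, limma adjusted p = 0.024). LARP1 was measured at 88.1, 84.6 and 86.4 FPKM in iEV and at 74.5, 76.0 and 73.8 FPKM in iGLI2 (log2 fold change -0.20 ± 0.05 SE, limma adjusted p = 0.041). TSC1 had a log2 fold change of -0.22 ± 0.06 SE with an adjusted p of 0.056, and on the other side EIF4E, EIF4EBP2 and MTOR had values of 0.10, 0.09 and 0.01, with no call (limma). MYC, outside the rule for naming and added for its known role, was measured at 78.9, 114 and 102 FPKM in iEV and at 46.1, 71.9 and 74.4 FPKM in iGLI2 and did not pass (log2 fold change -0.63 ± 0.23 SE, limma adjusted p = 0.10).

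Shifts of this size were not limited to the cytosolic ribosome. Shares called lower in this paragraph stand beside 11.8% of all tested genes. The 74 mitochondrial ribosomal proteins had a median log2 fold change of -0.16 with 13 called lower (17.6%) and 0 higher, among them MRPL17 at -0.46 ± 0.05 SE, MRPL23 at -0.99 ± 0.19 SE and MRPL35 at -0.30 ± 0.06 SE (limma adjusted p = 0.0030, 0.015 and 0.022). The 79 tested genes of oxidative phosphorylation had a median of -0.21 with 22 called lower (27.8%) and 0 higher, led by ATP5G1 at -0.96 ± 0.06 SE, ATP5B at -0.49 ± 0.05 SE and NDUFB2 at -0.45 ± 0.06 SE (limma adjusted p = 5.6e-04, 0.0026 and 0.0048). The 750 other genes that averaged 100 FPKM or more had a median of -0.08, with 14.8% called lower and 6.93% higher, and the 81 others at 500 FPKM or more a median of -0.13, with 17.3% and 6.17%. Calls in the higher direction numbered 5 among those 81 genes and 0 among the 79 members.

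**Figure D5:**
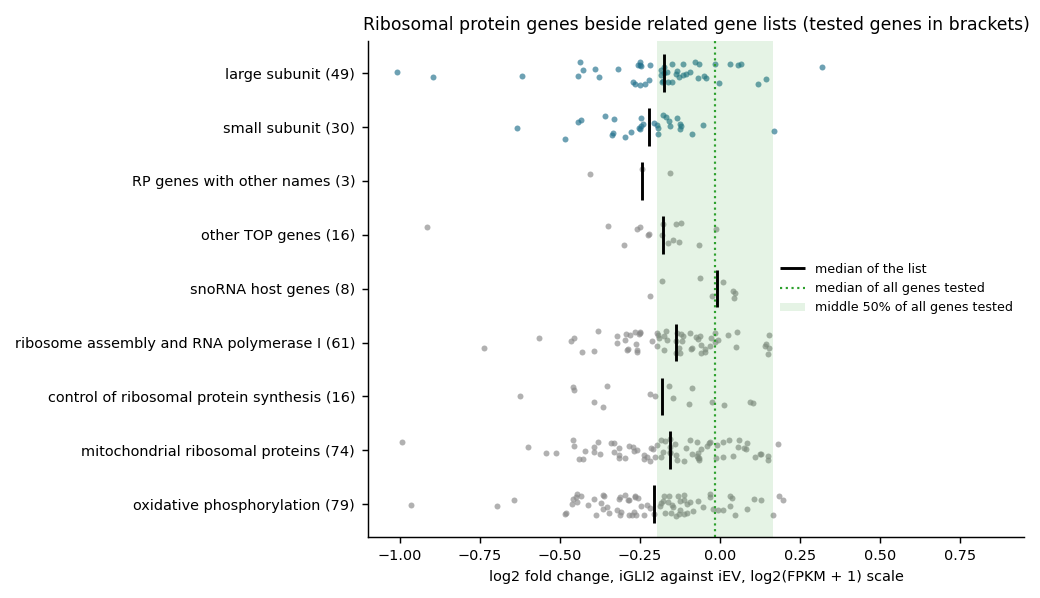
Log2 fold change of each tested gene (x axis, log2(FPKM + 1) scale) in the large and small subunit sets and 7 related lists (rows, number tested in brackets), with the median of each list (black bar), the median of all genes tested (dotted line) and the middle 50% of all genes tested (shaded). Both subunits lie left of the dotted line, as do most lists other than the small nucleolar RNA host genes.

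The size of the common shift depended on the scaling. With small RNA entries left out and the libraries rescaled, the subunit medians were -0.10 and -0.14, 65 of 79 members were below 0, and the median of all genes was 0.06. After quantile normalization, which gives each library the same set of values, the subunit medians were -0.004 and -0.05 and 45 members were below 0. In that fit 7 of the 11 called members were still called lower, where 12.2% of all tested genes were, and RPL36AL and RPS14 were called higher. Upper quartile scaling and scaling by the other genes left medians between -0.16 and -0.22. Over all 18 alternatives, 41 members were below 0 in each, 4 were above 0 in each and 34 changed sign, and the 11 called genes were below 0 in each. The common shift of both subunits thus depended on the scale. RPL27A, RPS13 and RPL21 were called lower in all 18 alternatives, and RPLP2 in all 12 that kept every library. RPLP0, RPLP1 and RPL14 were called under every scaling tried, but not with no filter on low values.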

How the data were processed

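The data are RNA-seq of 3 YAPC-iEV and 3 YAPC-iGLI2 libraries made from total RNA. Per the labels and the study's methods, reads were trimmed with Trimmomatic, aligned to hg19 with TopHat2 and compared with Cuffdiff 2.1.1. The gene annotation and how multiply matching reads were assigned are not given in the sources used here. The table deposited by the authors holds 1 value per gene and library with no stated unit, read as FPKM from its form. It gives no depth, so precision rests on the spread between libraries. Of 27024 entries, 1252 outside the primary chromosomes were left out, and 0 columns lacked a sample.

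The test was limma 3.58.1 (R 4.3.3) on log2(FPKM + 1), two-sided, with an intensity trend, condition as the only term, Benjamini-Hochberg adjustment and a threshold of 0.05, over the 12493 genes averaging 1 FPKM or more, after a trial on simulated data. Fold changes are on this scale, and values after ± are SE unless named SD. Transcript GC content and length came from GENCODE release 44 lifted to GRCh37, which matched all 79 tested members by name. Tables and plots were made in Python 3.11.15.

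The members and the related lists were chosen with earlier results of these data known, and the lists are described by counts and medians only. Named are the members past the threshold, the 5 most abundant, the 3 of each subunit nearest its median, second copies with their partners, RPL5, RPL11, RPLP0, RPLP1, RPLP2, RPSA and RPS6, members listed at 0 and the genes of smallest p in each list. Some genes that meet this rule are not reported here. RPL4, RPS16, RPS14 and MYC were named after their values were seen. Alternatives were other scalings, pseudocounts and filters, the replicate number as a block, moderation without trend and each library left out. Scaling by the median ratio of other genes, robust moderation and removal of a GC and length trend were added after seeing the data.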

Additional observations from a re-analysis of the deposited data

Results flagged for a closer look

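Entries named as pseudogenes of ribosomal protein genes lay outside the comparisons above, and 2 of them were higher in every iGLI2 library than in every iEV library. RPS2P32 had a mean of 4.387 FPKM in iGLI2 and 2.75 FPKM in iEV (log2 fold change 0.52 ± 0.11 SE, limma adjusted p = 0.023), while its parent RPS2 fell. RPS18P9 had a mean of 1.276 FPKM in iGLI2 and 0.837 FPKM in iEV (log2 fold change 0.32 ± 0.14 SE, limma adjusted p = 0.15). Of the 15 such entries tested, RPSAP9 was called lower, at 1.80 FPKM in iGLI2 and 3.34 FPKM in iEV (log2 fold change -0.64 ± 0.16 SE, limma adjusted p = 0.036), as was its parent RPSA. With 19.2% of all tested genes higher in every iGLI2 library, 2 of 15 is no more than the background, and how reads shared with the parent genes were assigned was not tested.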

How the results depend on the processing

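Leaving out single libraries gave between 3 and 13 members called lower (3 without iEV replicate 2, iEV replicate 3 or iGLI2 replicate 2, and 5 without iGLI2 replicate 3), as calls over all genes ran from 1223 to 3753. In the fits named, 4.92%, 5.45%, 5.77% and 6.63% of all tested genes were called lower. Without iEV replicate 1 the values were 12 members and 9.31% of all tested genes, and without iGLI2 replicate 1 they were 13 and 15.2%. Members called lower numbered 7 after quantile normalization, where 12.2% of all tested genes were called lower. With no filter on low values they numbered 5, where 7.62% of all tested genes were. The count called higher was 1 with small RNA entries left out or with the GC and length trend removed and 2 after quantile normalization. Quantile normalization also moved the subunit medians to -0.004 and -0.051 and the number of members below 0 to 45. With small RNA entries left out, 59.3% of all calls were higher, against 46.0%. The replicate number as a block gave 20 members called lower, where 17% of all tested genes were, and 3928 calls over all genes. Deviations of same-numbered libraries correlated at 0.204, 0.0919 and 0.0276, and the labels state no pairing, so the number only names a sample. None of the 11 called genes changed sign under any of the 18 alternatives. FPKM without depth limits what can be said of low genes such as RPL3L.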
